A study of Homo sapiens with 6 samples.

Results

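The 62 human genes described here encode the factors that start and extend protein synthesis on cytosolic ribosomes, with the enzymes that modify the elongation factors. They were chosen by symbol from 78932 gene rows: protein-coding genes whose symbol begins with EIF1 to EIF6 or EEF, without the EIF2AK kinases, the EIF4EBP proteins, EEF1E1, Y-linked genes and pseudogenes. The rule uses no measured value, but it was set with earlier results of these data known. Of the 62 genes, 45 belong to initiation, 10 to elongation and 7 are enzymes acting on elongation factors. The filter on low counts left 57 of them among 17677 tested genes. EEF1A2, EEF1G, EEF1AKMT4-ECE2, EIF4E1B and EIF4E3 did not pass it.

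RNA sequencing compared 3 libraries of Karpas-45 cells with a scramble control hairpin (genotype label WT) with 3 libraries of Karpas-45 cells carrying the hairpin shMEF2CKD2 (genotype label MEF2C KD). Karpas-45 is a human T-cell acute lymphoblastic leukemia line, and MEF2C is a transcription factor of the MADS-box family. Both groups are labelled untreated leukemic blasts from bone marrow. The series' text describes a GFP-linked lentiviral hairpin against MEF2C, with GFP-positive cells sorted 120 hours after transduction, and does not say the same of the scramble separately. The model is 1 line and 1 hairpin. The 3 libraries of a group are labelled technical replicates, so a p-value here reflects no spread beyond that of such replicates. MEF2C itself drew 2, 1 and 0 reads with the scramble and 2, 0 and 0 with the hairpin, too few to check the labels. All 12 T-lineage markers were detected, with a summed level of 3568 to 3673 CPM (read counts scaled to library size) in scramble and 3731 to 3858 CPM in the hairpin libraries. B-lineage markers summed to at most 4.18 CPM, myeloid markers to at most 2.54 CPM and markers of the embryonic kidney packaging line to at most 3.63 CPM, with LHX1 and SIX2 at 0 reads.

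Initiation begins when eIF2, carrying the initiator tRNA and GTP, joins eIF1, eIF1A, eIF5 and eIF3 on the small ribosomal subunit, and the eIF4 proteins bring this complex to the capped end of an mRNA. After start-codon recognition, eIF5B joins the large subunit, and eIF2B recharges eIF2 with GTP. Elongation then runs on eEF1A, which delivers aminoacyl-tRNA, its exchange factor eEF1B, the translocase eEF2, and eIF5A, which relieves stalls. In lymphoid cells the supply of these factors is tied to growth through MTOR signalling, and many of their mRNAs start with a pyrimidine tract that this signalling reads.

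The changes were small and mostly downward, with a lower median for initiation than for elongation genes. By edgeR's quasi-likelihood test 24 of the 57 tested genes fell, 4 rose and 29 did not pass an adjusted p of 0.05, where 28.8% of all tested genes passed, 15.3% lower and 13.5% higher. The median log2 fold change, hairpin over scramble, was -0.07 over these genes and 0.00 over all tested genes. Of the 43 tested initiation genes 21 fell and 3 rose (EIF3E, EIF3H and EIF3L), with a median of -0.09. Of the 8 tested elongation genes 3 fell (EEF1A1, EEF1B2 and EEF2) and 0 rose, with a median of -0.05, and 4 of the 8 had an unadjusted p under 0.05. Such a p was found for 6565 of all 17677 tested genes. At a mean of at least 100 CPM, the class of those 4 genes, it was found for 1643 of 2547. Among the 6 tested enzymes EEF2K alone passed, upward. The 3 values of one group lay entirely outside those of the other for 39 of the 57 genes, against 39.9% of all tested genes.

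**Figure D1:**
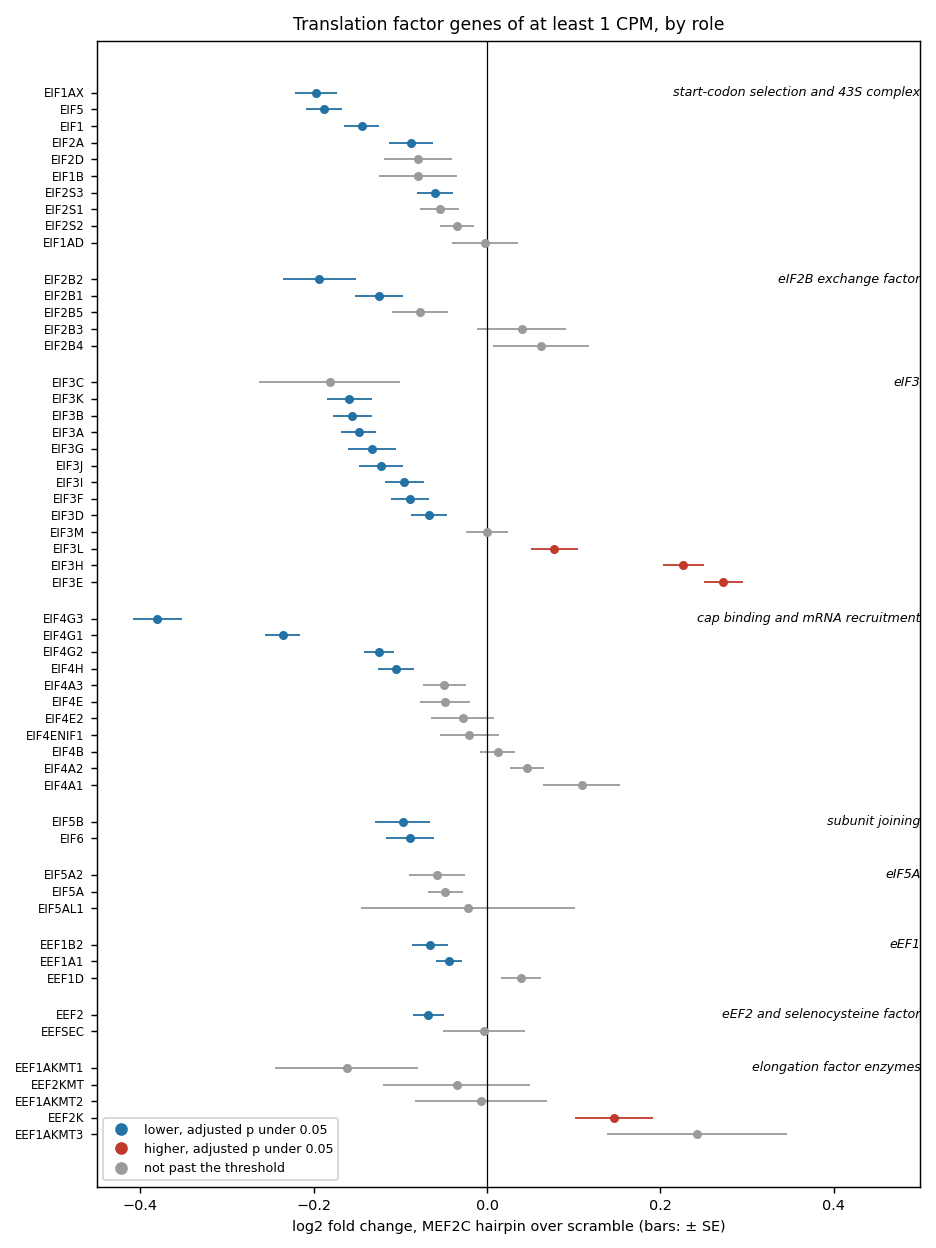
Log2 fold change (hairpin over scramble, points) with its SE (bars) for the translation factor genes of at least 1 CPM, ordered by role. The lowest point is EIF4G3 at -0.38, and EIF3E at 0.27 and EIF3H at 0.23 are the highest of those that passed the threshold.

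These genes are abundant, and abundant genes passed more often and more often downward. At a mean of at least 100 CPM, 57.4% of all 2547 tested genes passed, 44.9% lower and 12.6% higher, with a median log2 fold change of -0.05. Of the 32 translation factor genes in this class 21 fell and 3 rose, with a median of -0.08, and the 27 initiation genes among them gave 18 lower and 3 higher with a median of -0.10. The 5 elongation genes of the class gave 3 lower and 0 higher with a median of -0.05, the same median as the class. Between 20 and 100 CPM 3 of 16 fell and 1 rose, where 40.4% of all genes in that class passed, 23.5% lower and 17% higher. Under 20 CPM 0 of 9 passed, where 15.8% of all genes did, 3.76% lower and 12% higher. The groups did not overlap for 29 of the 32 genes of at least 100 CPM (64.6% of all genes of the class), for 8 of 16 between 20 and 100 CPM (50.8%) and for 2 of 9 under 20 CPM (28.2%).

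**Figure D2:**
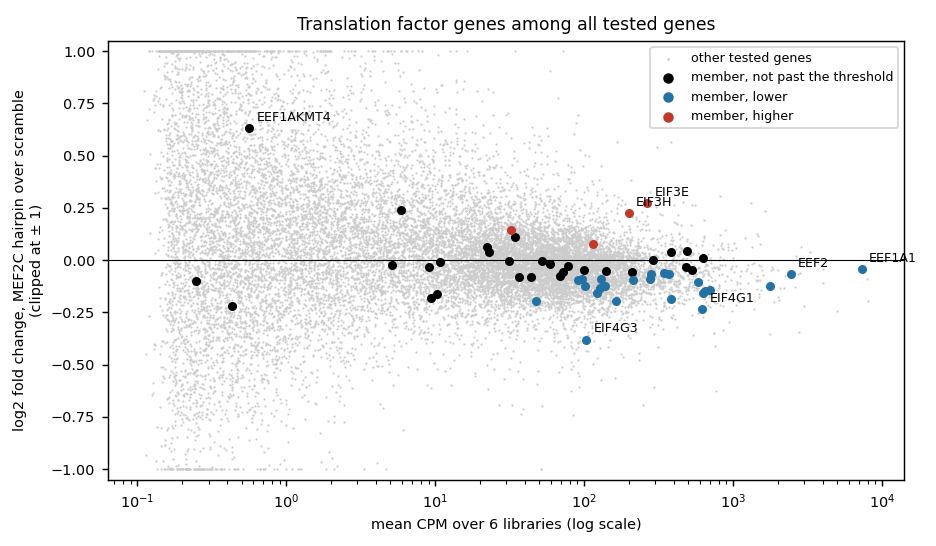
Log2 fold change (hairpin over scramble, clipped at 1) against mean CPM over 6 libraries on a log axis, with translation factor genes in colour over all 17677 tested genes in grey. From 100 CPM upward 21 of 32 of these genes lie lower past the threshold. EIF3E at 0.27 and EIF3H at 0.23 are the highest of the 32, where all tested genes of this class reach 0.79.

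Folds of this size depend on the scaling between libraries. The trimmed-mean (TMM) factors ran from 0.980 to 0.988 in scramble and from 1.011 to 1.018 in the hairpin libraries, and scaling by total gene reads instead moved the median of all genes up by 0.04 on the log2 scale. Under that scaling the 57 genes gave 14 lower and 9 higher with a median of -0.02, initiation gave 14 lower and 6 higher, and elongation gave 0 lower and 1 higher (EEF1D), where 9.69% of all tested genes were lower, 18.8% higher and 28.5% either. At 100 CPM and above it gave 13 lower and 6 higher of the 32, where 28.3% of all genes of the class were lower, 22.8% higher and 51.1% either. Over all tested genes the share of lower calls among those that passed was 53.2% with TMM and 34.0% with total reads. Of the 28 genes that passed, 16 did so in the same direction under all 14 alternative analyses: EIF1, EIF1AX, EIF5, EIF2B1, EIF2B2, EIF3A, EIF3B, EIF3E, EIF3G, EIF3H, EIF3J, EIF3K, EIF4G1, EIF4G2, EIF4G3 and EIF4H. All 16 are initiation genes, as are 24 of the 28. The share of all called genes kept under every alternative was not counted.

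With TMM scaling the summed level of the initiation genes was 11234 ± 25.4 CPM (SD, n = 3) in scramble and 10578 ± 48.3 CPM in the hairpin libraries, so it fell by 5.84%. The summed level of the elongation genes was 11289 ± 29.9 CPM and 10926 ± 73.0 CPM, so it fell by 3.22%. EEF1A1 alone, at 7395 CPM in scramble, made up most of the elongation sum. Without EEF1A1 the sum was 3895 ± 47.3 CPM and 3753 ± 53.3 CPM, a change of -3.63%. These percentages depend on the scaling. As a share of gene reads, which TMM does not touch, initiation was at 1.11% ± 0.00416 with the scramble and 1.07% ± 0.000948 with the hairpin, a change of -2.90%, and elongation at 1.11% ± 0.00389 and 1.11% ± 0.00334, a change of -0.19% (SD, n = 3 each). The groups did not overlap in the initiation share and overlapped in the elongation share. A ratio within a library does not depend on the scaling at all. Initiation over elongation was 0.995, 0.995 and 0.996 with the scramble and 0.966, 0.968 and 0.970 with the hairpin. The groups did not overlap in this ratio, for which no p-value is given. By role the summed CPM with TMM scaling changed by -7.15% for the start-codon and 43S genes, -6.51% for the cap and recruitment genes, -6.28% for eIF2B, -6.26% for the subunit-joining genes and -3.82% for eIF3. As shares of gene reads the same changes were -4.25%, -3.60%, -3.36%, -3.33% and -0.81%. Within elongation the change in summed CPM was -2.80% for eEF1, -4.53% for eEF2 with EEFSEC and -3.39% for eIF5A, and as shares of gene reads 0.24%, -1.54% and -0.37%. The share of gene reads held by all 62 genes was 2.22% ± 0.00812 with the scramble and 2.19% ± 0.00427 with the hairpin (SD, n = 3 each). In bulk RNA, less RNA per cell and fewer cells of a kind cannot be told apart.

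The largest decreases among the genes that passed were those of EIF4G3 and EIF4G1, scaffolds that tie the cap-binding complex together. EIF4G3 (eIF4GII; chr1:20806292-21176888, minus strand, GRCh38 as in GENCODE 29) was at 118, 117 and 115 CPM in scramble and 92.1, 88.9 and 87.8 CPM in the hairpin libraries. The groups were far apart relative to their spread, and the gene fell by 23.2%, -0.38 on the log2 scale (SE 0.0281, edgeR adjusted p = 1.52e-13). EIF4G1 (chr3:184314495-184335358, plus strand), the main scaffold that binds eIF4E, eIF4A and eIF3, was at 668, 671 and 674 CPM against 584, 563 and 562 CPM, -0.24 on the log2 scale (SE 0.0199, edgeR adjusted p = 4.7e-12). EIF4G2 (chr11:10797050-10809110, minus strand), a relative that lacks the eIF4E-binding region, was at 1862, 1815 and 1844 CPM against 1692, 1688 and 1684 CPM, -0.12 on the log2 scale (SE 0.0175, edgeR adjusted p = 4.95e-07). All 3 scaffold genes fell without overlap between groups. They are at a mean of 100 CPM or more, where 44.9% of all genes were lower and 64.6% did not overlap. EIF4G3 fell more than EIF4G1: the ratio of their CPM was 0.174 ± 0.00348 in scramble and 0.157 ± 0.000869 in the hairpin libraries (SD, n = 3 each), without overlap.

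Of the other 8 tested cap-complex genes EIF4H alone passed. EIF4H, which stimulates the eIF4A helicase, was at 587, 603 and 610 CPM in scramble and 571, 562 and 540 CPM in the hairpin libraries, a log2 fold change of -0.11 (edgeR adjusted p = 0.000169). EIF4E, the cap-binding protein, was at 103, 103 and 98.4 CPM against 95.3, 100 and 98.1 CPM, overlapping between groups (log2 -0.05, edgeR adjusted p = 0.23). The helicase genes had positive estimates that did not pass. EIF4A2 was at 485, 483 and 483 CPM against 497, 508 and 493 CPM (log2 0.05, edgeR adjusted p = 0.082), and EIF4A1 at 34.3, 31.6 and 33.2 CPM against 35.9, 34.9 and 36.3 CPM (log2 0.11, edgeR adjusted p = 0.0642). Neither overlapped between groups, and both passed, upward, with total-read scaling, upper-quartile scaling and the stricter filter. EIF4B, the helicase cofactor, had a log2 fold change of 0.01. EIF4A3, EIF4E2 and EIF4ENIF1, which serve the exon junction complex, cap-bound repression and eIF4E transport, lay between -0.05 and -0.02 and did not pass.

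**Figure D3:**
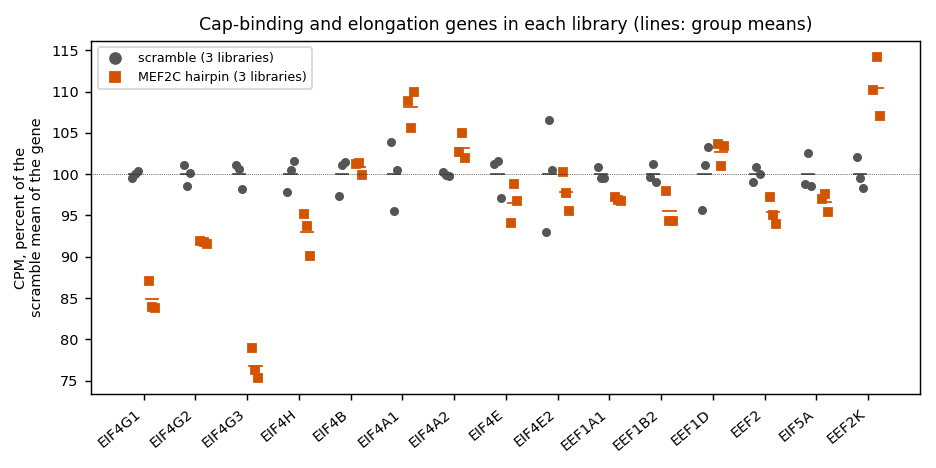
CPM in each library as a percent of the gene's scramble mean, for cap-complex and elongation genes (circles scramble, squares hairpin, short lines group means, 3 libraries each). EIF4G3 and EIF4G1 stand lowest in all 3 hairpin libraries, EIF4E and EIF4B overlap between groups, and the elongation genes stay within a few percent of their scramble means.

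The eIF3 subunit genes split. This complex of 13 subunits bridges the small ribosomal subunit and eIF4G. Of its 14 tested genes, counting the copy EIF3CL, 8 fell, 3 rose and EIF3C, EIF3CL and EIF3M did not pass, with a median log2 fold change of -0.11. All but EIF3C and EIF3CL are at 100 CPM or more, where 44.9% of all genes were lower and 12.6% higher. EIF3E (chr8:108201216-108435333, minus strand) was at 243, 234 and 241 CPM in scramble and 289, 284 and 295 CPM in the hairpin libraries. It rose by 20.8%, 0.27 on the log2 scale (SE 0.0224, edgeR adjusted p = 2.45e-12), with no overlap. EIF3H (chr8:116642130-116766925, minus strand) was at 179, 187 and 184 CPM against 221, 211 and 212 CPM, 0.23 on the log2 scale (SE 0.0241, edgeR adjusted p = 1.35e-09), also with no overlap. EIF3L was at 111, 112 and 113 CPM against 117, 121 and 116 CPM, a log2 fold change of 0.08 (edgeR adjusted p = 0.0264), and this call was lost without hairpin replicate 2 or without any 1 of the scramble replicates.

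The 8 eIF3 genes that fell include EIF3A and EIF3B. EIF3A, the largest scaffold subunit, was at 698, 689 and 667 CPM in scramble and 629, 614 and 612 CPM in the hairpin libraries, -0.15 on the log2 scale (SE 0.0203, edgeR adjusted p = 3.12e-07). EIF3B, another subunit, was at 659, 676 and 638 CPM against 604, 568 and 598 CPM, -0.16 on the log2 scale (SE 0.0226, edgeR adjusted p = 1.18e-06). Both separated the groups without overlap. EIF3K was at 126, 129 and 130 CPM against 114, 116 and 114 CPM, a log2 fold change of -0.16 (edgeR adjusted p = 6.16e-06), and EIF3G, EIF3J, EIF3I, EIF3F and EIF3D fell by 0.13, 0.12, 0.10, 0.09 and 0.07 on the log2 scale. EIF3F, EIF3I and EIF3D no longer passed under total-read scaling, nor did EIF3D without the filter or without hairpin replicate 3. The ratio of EIF3E to EIF3A was 0.350 ± 0.0108 in scramble and 0.468 ± 0.0123 in the hairpin libraries, and that of EIF3H to EIF3A 0.268 ± 0.0101 and 0.347 ± 0.00323 (SD, n = 3 each).

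**Figure D4:**
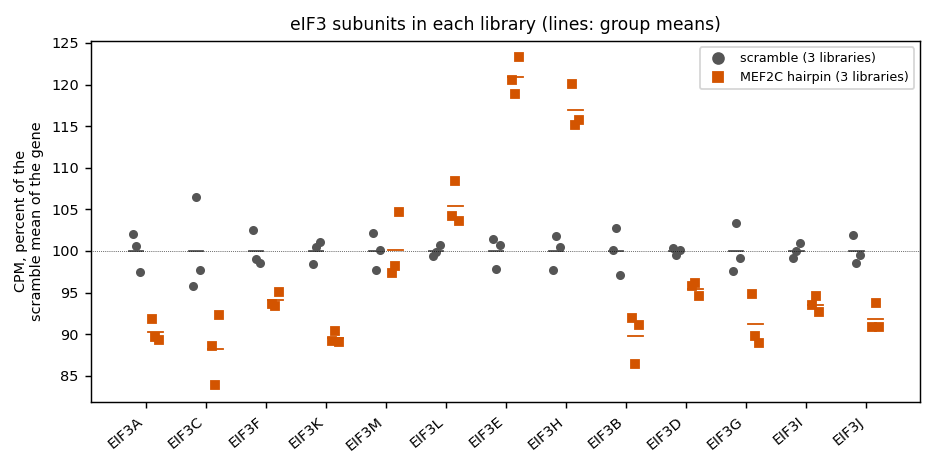
CPM of each eIF3 subunit gene in each library as a percent of the gene's scramble mean (circles scramble, squares hairpin, short lines group means, 3 libraries each). The hairpin values of EIF3E and EIF3H lie above all their scramble values, while those of EIF3A, EIF3B and EIF3K lie below.

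Position in the complex did not sort the subunits by direction within the octamer. Of the 8 subunits of the structural octamer (EIF3A, EIF3C, EIF3E, EIF3F, EIF3H, EIF3K, EIF3L and EIF3M) 3 rose and 3 fell. Of the 5 outside it (EIF3B, EIF3D, EIF3G, EIF3I and EIF3J) 5 fell and 0 rose, with a median log2 fold change of -0.12. All 5 are at 100 CPM or more, where 44.9% of all genes were lower and the median was -0.05. EIF3E and EIF3H lie on chromosome 8, where protein-coding genes of at least 20 CPM stood higher than on the other chromosomes: 28.2% of 227 genes rose and 13.2% fell, with a median of 0.03, against 15.3%, 30.7% and -0.03 over 7402 such genes on all chromosomes. Between 100 and 120 Mb, the stretch that holds both genes, 12 of 23 genes rose and 2 fell, with a median of 0.09. This stretch was drawn around EIF3E and EIF3H after their values were seen, and without them 10 of 21 rose and 2 fell, with a median of 0.08. EEF1D, on the same chromosome, had a log2 fold change of 0.04 (edgeR adjusted p = 0.231), and PABPC1, which encodes the main cytosolic poly(A)-binding protein, -0.05 (edgeR adjusted p = 0.0373), a call kept in 4 of 14 alternatives and lost, among others, with total-read scaling, with the replicate block and without any 1 of the hairpin replicates or scramble replicate 1 or 2. The part of the chromosome in the increase of EIF3E and EIF3H was not tested.

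Among 11 tested genes for start-codon selection and the 43S complex 5 fell and 0 rose. All 5 are among the 7 genes of the group at 100 CPM or more, a class in which 44.9% of all genes were lower. EIF1AX (chrX:20124518-20141844, minus strand), which encodes eIF1A, was at 175, 170 and 176 CPM in scramble and 150, 151 and 153 CPM in the hairpin libraries, -0.20 on the log2 scale (SE 0.0242, edgeR adjusted p = 3.09e-08). EIF5 (chr14:103333544-103345025, plus strand), the GTPase activator of eIF2, was at 418, 409 and 400 CPM against 355, 360 and 363 CPM, -0.19 on the log2 scale (SE 0.0212, edgeR adjusted p = 5.03e-09). EIF1, which guards against initiation at wrong codons, was at 715, 742 and 743 CPM against 670, 664 and 656 CPM, -0.14 on the log2 scale (SE 0.0199, edgeR adjusted p = 3.12e-07). None of the 3 overlapped between groups, in a class where 64.6% of all genes did not. All 11 estimates of the group were below 0 with TMM scaling, with a median of -0.08. Over all tested genes 8669 of 17677 were below 0, and at 100 CPM or more 1787 of 2547. With total-read scaling the estimates of EIF1AD (0.0414) and EIF2S2 (0.0099) were above 0.

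The subunits of eIF2 itself moved less. EIF2S3, the GTP-binding gamma subunit, was at 354, 349 and 344 CPM against 339, 335 and 329 CPM, a log2 fold change of -0.06 (edgeR adjusted p = 0.0292), a call lost in 9 of 14 alternatives, among them those without hairpin replicate 2 or 3 and without scramble replicate 1 or 2. EIF2S1, the alpha subunit whose phosphorylation slows initiation, was at 216, 211 and 211 CPM against 203, 205 and 205 CPM, without overlap, and did not pass (log2 -0.05, edgeR adjusted p = 0.0666). EIF2S2, the beta subunit, had a log2 fold change of -0.03 (edgeR adjusted p = 0.216). EIF2A, an alternative initiator tRNA carrier, had -0.09 (edgeR adjusted p = 0.00722), a call lost under total-read scaling and without hairpin replicate 1.

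In the exchange factor eIF2B, 2 of 5 genes fell. EIF2B1 is at a mean of at least 100 CPM, where 44.9% of all genes were lower. The others are between 20 and 100 CPM, where 23.5% were. EIF2B2 was at 53.5, 50.2 and 47.1 CPM in scramble and 45, 44.3 and 42.5 CPM in the hairpin libraries, -0.19 on the log2 scale (SE 0.0422, edgeR adjusted p = 0.000424), and EIF2B1 at 106, 105 and 103 CPM against 97.8, 95.2 and 95.6 CPM, -0.13 (edgeR adjusted p = 0.000509). With EIF2B4 they encode the regulatory core that senses phosphorylated eIF2, and EIF2B4 did not pass (log2 0.06, edgeR adjusted p = 0.456). EIF2B5, the catalytic subunit, was at 71.6, 69.6 and 71.5 CPM against 67.6, 66.5 and 67.8 CPM and did not pass (log2 -0.08, edgeR adjusted p = 0.0695), and EIF2B3, its catalytic partner, had 0.04. Both subunit-joining genes fell, at a mean between 20 and 100 CPM, where 23.5% of all genes were lower. EIF5B, the GTPase that joins the large subunit, was at 98.5, 93.8 and 89.2 CPM against 86.3, 88.2 and 88.8 CPM (log2 -0.10, edgeR adjusted p = 0.0176), and EIF6, which keeps free large subunits apart from small ones, at 98.6, 102 and 100 CPM against 93.7, 94.9 and 93.8 CPM (log2 -0.09, edgeR adjusted p = 0.0139). Both calls were lost under total-read scaling, that of EIF5B also without hairpin replicate 1 or scramble replicate 1 or 2, and that of EIF6 without scramble replicate 2.

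The elongation genes include the most abundant of all 62, and the 3 that fell changed by less than 0.10 on the log2 scale. EEF1A1 (chr6:73515750-73523797, minus strand), which encodes the main eEF1A, was at 7458, 7365 and 7361 CPM in scramble and 7195, 7167 and 7157 CPM in the hairpin libraries. The groups did not overlap, with a change of -0.04 on the log2 scale (SE 0.0154, edgeR adjusted p = 0.0279), a call lost in 10 of 14 alternatives, among them those without any 1 of the hairpin replicates and without scramble replicate 1 or 2. As a share of gene reads EEF1A1 was at 0.728% in both groups (SD 0.00722 and 0.000699, n = 3 each). EEF2 (chr19:3976056-3985469, minus strand), the translocase, was at 2466, 2511 and 2488 CPM against 2419, 2365 and 2338 CPM, -0.07 on the log2 scale (SE 0.0175, edgeR adjusted p = 0.00267), which only total-read scaling ended. EEF1B2, the beta subunit of the exchange factor, was at 379, 385 and 376 CPM against 372, 358 and 358 CPM (log2 -0.07, edgeR adjusted p = 0.0164), a call lost without hairpin replicate 2 or 3, without scramble replicate 2, without the filter and under total-read scaling. EIF5A was at 532, 552 and 531 CPM against 523, 526 and 514 CPM, without overlap, and did not pass (log2 -0.05, edgeR adjusted p = 0.0761). EEFSEC, which delivers selenocysteine, was level at 0.00.

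Among the enzymes, EEF2K, the kinase that inhibits eEF2 by phosphorylation, was at 31.2, 30.4 and 30.02 CPM in scramble and 33.6, 34.9 and 32.7 CPM in the hairpin libraries. The groups did not overlap, and EEF2K changed by 0.15 on the log2 scale (SE 0.0453, edgeR adjusted p = 0.0122), a call lost without hairpin replicate 2 or scramble replicate 3. EEF1AKMT1, a lysine methyltransferase of eEF1A, was at 11.1, 10.1 and 11.3 CPM against 9.09, 10.9 and 8.86 CPM and did not pass (log2 -0.16, edgeR adjusted p = 0.151). The other 4 tested methyltransferase genes did not pass either, with log2 fold changes from -0.04 to 0.63, the last for EEF1AKMT4 at under 1 CPM.

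Levels between genes were compared as CPM per kilobase of the principal transcript. In scramble EEF1A1 stood first at 1665 ± 12.4, followed by EIF4G2 at 934 ± 12.0, EEF2 at 786 ± 7.21, EIF5A at 356 ± 7.95 and EEF1B2 at 346 ± 3.98 CPM per kilobase (SD, n = 3 each). EIF1 at 315 ± 6.78 was highest among the 43S genes and EIF3F at 229 ± 4.97 among the eIF3 genes. EIF4G1 was at 122 ± 0.565 and EIF4G3 at 20.1 ± 0.316 CPM per kilobase, so the scaffold that fell more is the less abundant of the pair. EIF2B1 led eIF2B at 42.3 ± 0.511, EIF6 the subunit-joining genes at 77.7 ± 1.25 and EEF1AKMT1 the enzymes at 10.4 ± 0.606 CPM per kilobase. The value of EIF4E, 8.79 ± 0.219, rests on a transcript of 11523 bases, and per kilobase of coding sequence it was 156. The order of other genes also depends on the length used. Per kilobase of coding sequence in scramble EEF1A1 (5335) was followed by EIF1 (2163.5), EIF4G2 (1381), EIF5A (1166) and EEF2 (967). On that measure EEF1B2 was at 563, and EIF3B (269) stood just above EIF3F (268).

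**Figure D5:**
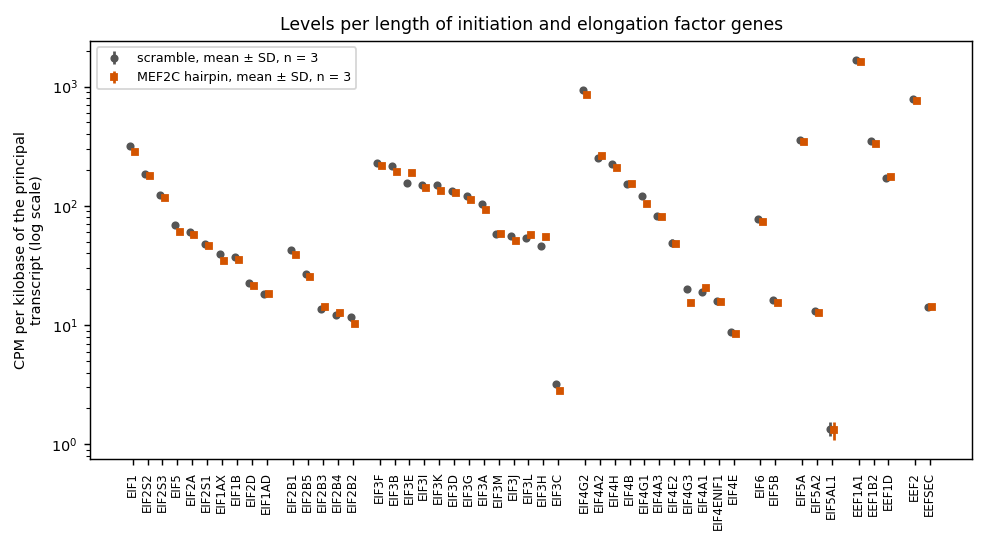
Mean CPM per kilobase of the principal transcript (log axis) with SD, n = 3, for initiation and elongation genes grouped by role, scramble (circles) and hairpin (squares). EEF1A1 is highest at 1665 in scramble, and the groups lie close together at every level.

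Several levels are limited by how reads were counted. EEF1G, the gamma subunit of eEF1B, had 1 read in 1 library and 0 in the others. In GENCODE 29 99.9% of its exonic bases are shared with the read-through gene AP002990.1, whose own row held 68 to 139 reads, and reads shared by more than 1 gene are not counted. EIF4A1 shares 48.6% of its exonic bases and EIF3L 51.8%, so their levels are lower bounds. EEF1D shares 34.0% with genes on the other strand, and whether the counting used strand is not given. EIF3C stood at 3.18 ± 0.181 CPM per kilobase, far below the other eIF3 genes. Its near-identical copy EIF3CL was at 0.193, 0.605 and 0.600 CPM in scramble and 0.371, 0.314 and 0.520 CPM in the hairpin libraries, and reads that fit both places are not counted. EIF3C was at 9.57, 10.7 and 9.77 CPM against 8.86, 8.38 and 9.23 CPM (log2 -0.18, edgeR adjusted p = 0.0942), a result that is uncertain for that reason. EIF5AL1, a copy of EIF5A, was at 4.59, 5.99 and 5.04 CPM against 5.42, 5.70 and 4.03 CPM, and EIF2S3B, a copy of EIF2S3, was under 0.4 CPM in all libraries. The 48 pseudogene rows of EEF1A1 held 0.542% to 0.642% as many reads as EEF1A1. Reads aligned to more than 1 place took 3.56% to 6.86% of reads in 5 libraries and 16.1% in hairpin replicate 3.

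The starts of the genes were read from RefSeq promoter windows (GRCh38.p14, 250 bases before to 50 bases after the start), which matched 50 of the 62 genes and 46 of the 57 tested. EIF3E, EIF3H and EIF3L, the 3 initiation genes that rose, are among those with no window. A run of C followed by at least 4 pyrimidines and beginning within 10 bases of the start was found in 40.3% of the 67 windows of these genes and in 32.9% of all 35116 windows. These stretches are shown for EEF1A1, EEF2 and EEF1B2, elongation genes with a known 5′ terminal pyrimidine tract, and for initiation genes with long runs. They are also shown for the 3 genes of the largest decreases that passed, each at a start without a run. Capitals mark the run, and each stretch has 30 bases on the gene's strand.
EEF1A1: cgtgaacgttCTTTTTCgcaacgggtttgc
EEF2: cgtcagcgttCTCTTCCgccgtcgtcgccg
EEF1B2: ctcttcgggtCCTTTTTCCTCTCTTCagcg
EIF3F: tccgcttccgCCTCCTTCTTTCTCgacaag
EIF3K: gtttccaccaCCTCTTCCTgttcccgtcct
EIF2S3: ggggtgatttCCTTCCTCTTTTggcaacat
EIF4B: cttttgcgttCTCTTTCCCTCTCCCaacat
EIF4G3: ttttccgagcagccgtcctgccggactgct
EIF4G1: gcggggagccggaaatggttgtggactacg
EIF1AX: gagtcgcggcgccatttgctgccgccgagc
They lie at chr6:73521013-73521042 (minus), chr19:3985444-3985473 (minus), chr2:206159885-206159914 (plus), chr11:7987323-7987352 (plus), chr19:38619177-38619206 (plus), chrX:24054941-24054970 (plus), chr12:53006456-53006485 (plus), chr1:21176878-21176907 (minus), chr3:184314596-184314625 (plus) and chrX:20141819-20141848 (minus). EIF4G3 and EIF4G1 have other annotated starts, with runs of 6 and 5 bases. EEF1B2 has another annotated start, without a run. EEF1G, also on the textbook list of mRNAs with such a tract, has no run at the start of its window's gene.

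Counts were taken with and without a long run. Of 15 tested genes with a run of at least 7 bases at any start 10 fell and 0 rose, with a median log2 fold change of -0.08. Of the other 31 with a window 12 fell and 1 rose, with a median of -0.05. At 100 CPM or more, where 44.9% of all genes were lower, 10 of 12 with a long run fell, with a median of -0.07, and 9 of 13 without one, with a median of -0.12. In the textbook list of mRNAs with such a tract, 4 of 8 tested members fell (EEF1A1, EEF1B2, EEF2 and EIF3F), 2 rose (EIF3E and EIF3H), and EEF1D and EIF4B did not pass, with a median of -0.02. The run of 15 pyrimidines in EIF4B stood beside a log2 fold change of 0.01, and the run of 9 in EIF3K beside -0.16. The motif CACGTG, the E-box bound by MYC, which reads the same on both strands, was in 20.9% of the windows of these genes and in 7.26% of all windows. EEF1AKMT4 and EEF1AKMT4-ECE2 share a window with the motif, which is counted for each. All windows include those of genes not tested here, and genes of like level were not compared. Of the 13 tested genes with CACGTG 4 fell and 1 rose, with a median of -0.05, and of the 33 without it 18 fell and 0 rose, with a median of -0.08. A match is a description of letters in the window.

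The 3′ UTRs were searched on the transcribed strand for TTGAGAA and TGAGAAA, overlapping matches included, because earlier work on these data found these 7-base words over-represented in genes that were lower in the hairpin libraries. They were in 26.3% of the 57 tested translation factor genes and in 27.7% of tested coding genes. Of the 15 with a word 7 fell and 2 rose, with a median log2 fold change of -0.05, and of the 42 without 17 fell and 2 rose, with a median of -0.07. Among all tested coding genes 30.2% of those with a word and 17.3% of those without were lower. EIF4G3, the gene that fell most, has 4 matches at 3 places in 849 bases, shown with the word in capitals (GRCh38, minus strand).
EIF4G3 site 1: aaaaaaagTTGAGAActtttaat
EIF4G3 site 2: gtccagatTTGAGAAagtttggg
EIF4G3 site 3: tgctacccTGAGAAAagtactct
The words lie at chr1:20806996-20807002, chr1:20806834-20806840 and chr1:20806637-20806643. EIF3A, EIF5, EIF1AX, EIF3J, EIF5B and EEF1A1, which fell, also hold a word, as do EIF3H and EEF2K, which rose. EIF4G1 and EIF4G2 hold none. The words carry no test here, since they were chosen on these libraries.

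Genes that act on or beside these factors were taken as 8 lists of 45 genes, of which 44 were tested, 16 fell and 6 rose, with a median log2 fold change of -0.05, where 15.3% of all tested genes were lower and 13.5% higher. Of the 21 at 100 CPM or more 10 fell and 4 rose (44.9% lower and 12.6% higher over all genes of that class), and of the 18 between 20 and 100 CPM 6 fell and 2 rose (23.5% and 17%). Of the eIF2 kinase and phosphatase genes 2 rose and 2 fell of 6. The kinase genes EIF2AK3 (PERK, the sensor of unfolded protein) and EIF2AK4 (GCN2, the sensor of uncharged tRNA) rose by 0.17 (edgeR adjusted p = 0.00261) and 0.14 (edgeR adjusted p = 0.00158) on the log2 scale. EIF2AK3 was at 32.6, 31.5 and 32.6 CPM in scramble and 35.6, 37.5 and 35.7 CPM in the hairpin libraries, and EIF2AK4 at 57.3, 57.3 and 58.0 CPM against 62.4, 62.2 and 66.3 CPM. PPP1R15A and PPP1R15B, which encode subunits of the phosphatase that opposes them and are named after their values were seen, had -0.17 and -0.07 and passed. The groups overlapped for PPP1R15A, whose call was lost with total-read scaling and without hairpin replicate 2 or 3 or scramble replicate 2 or 3. That of PPP1R15B was lost with total-read scaling, without the filter and without hairpin replicate 3 or scramble replicate 1.

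Upstream of eIF4E, MTOR, the growth kinase, was at 149, 145 and 146 CPM in scramble and 127, 129 and 134 CPM in the hairpin libraries, a log2 fold change of -0.18 (edgeR adjusted p = 7.45e-07). LARP1, which binds the pyrimidine tracts and represses those mRNAs when MTOR is inactive, was at 526, 529 and 523 CPM against 483, 488 and 477 CPM, -0.12 (edgeR adjusted p = 4.35e-06). In that list of 11 genes for eIF4E and eIF4A control 3 fell and 3 rose. PABPC4, a poly(A)-binding protein, was at 452, 453 and 456 CPM against 409, 393 and 400 CPM, -0.18 (edgeR adjusted p = 7.64e-09), and its list gave 2 lower and 1 higher of 4 tested.

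Of 7 other cytosolic initiation and recycling genes 4 fell and 0 rose, and the calls of MCTS1 and CDC123, named after their values were seen, held in 6 and 7 of 14 alternatives. That of MCTS1 was lost with total-read scaling and without hairpin replicate 3 or any 1 of the scramble replicates, and that of CDC123 with total-read scaling and without hairpin replicate 2 or 3 or scramble replicate 1 or 2. DENR, which recycles small subunits and restarts them after short upstream reading frames, had a log2 fold change of -0.19 (edgeR adjusted p = 8.39e-09), and the helicase gene DDX3X -0.10 (edgeR adjusted p = 0.000117). Among 5 termination and rescue genes GSPT1 and GSPT2, which encode forms of the release factor eRF3, fell by 0.07 and 0.15 on the log2 scale and 0 rose. Both calls were lost with total-read scaling and without scramble replicate 3, that of GSPT1 also without the filter, hairpin replicate 2 or scramble replicate 1, and that of GSPT2 without hairpin replicate 3 or scramble replicate 2. DOHH, the last enzyme of the hypusine modification of eIF5A, fell by 0.16 on the log2 scale (edgeR adjusted p = 0.027), a call lost with total-read scaling and without hairpin replicate 2 or 3 or scramble replicate 3, and DHPS, the first, did not pass. AIMP1, a scaffold of the tRNA synthetase complex, had a log2 fold change of -0.24 (edgeR adjusted p = 1.38e-08), the lowest of the 44. In mitochondria, which carry their own factors, 1 of 6 genes fell, GFM2 at -0.14 (edgeR adjusted p = 0.00102), and 0 rose.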

How the data were processed

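TRIzol was used to extract total RNA and TruSeq to build libraries, per the labels' protocols. Trim Galore, STAR and HTSeq were used on build hg38, per the submitters' processing notes. Versions, annotation release and strand setting are not given in the sources used here. The authors deposited raw counts, 1 whole number of reads per gene, in a separate file for each library and with no scaling applied. Gene totals ran from 45560303 to 97077335 reads, so 3 reads correspond to at most 0.0658 CPM. The 5 summary lines that name no gene held 19.2% to 31.4% of reads and stayed out of totals and tests. Chi-square per gene between replicates was 3.32 to 4.50, and none was treated as a repeat deposit.

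Identifiers were matched to symbols (77.9% matched) and to positions, exons and transcripts of GENCODE 29. The filter was filterByExpr (minimum count 10). A quasi-likelihood model was fitted in edgeR 4.0.16 (R 4.3.3) to all 6 libraries with TMM scaling, robust dispersion and no covariate beside the group. The common biological coefficient of variation was 0.0324. Adjustment was by Benjamini-Hochberg across the 17677 tested genes, with 0.05 as threshold. Each SE was computed from the fold change (log2) and its F statistic. CPM values use TMM-scaled totals. CPM per kilobase divides by the length of the APPRIS principal transcript. On simulated counts for 17677 genes at these library sizes, 26 of 49 genes changed by 0.25 on the log2 scale were called, 33 of 49 changed by 0.5, and 7 of 17188 unchanged genes. The simulation gave every gene the common dispersion and changed few genes, where 28.8% passed in the data. Its rates need not hold for these libraries.

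The members and lists were chosen with earlier results of these data known. Named with values are 9 genes always given, in each role up to 3 called members of smallest adjusted p, the member highest per length and genes with near-identical copies, and from each partner list up to 2 genes with the smallest adjusted p. Other genes given with values, and the sets by subunit position, start tract, CACGTG, 3′ UTR word and chromosome were chosen after values were seen. Alternatives were DESeq2 1.42.0 and its size factors, limma 3.58.1 with voom, upper-quartile scaling, no filter, a stricter filter (at least 1 CPM in at least 3 libraries), the replicate number as a block and leaving out each library; total-read scaling was added after seeing the data. Protein sequences were not used here.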

Additional observations from a re-analysis of the deposited data

How the results depend on the processing

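Scaling by total gene reads, chosen after seeing the data, moved the counts most: 1713 of all tested genes were lower instead of 2711, 14 translation factor genes were lower instead of 24 and 9 higher instead of 4, 6 initiation genes were higher instead of 3, 0 elongation genes were lower instead of 3 and 1 higher instead of 0, and 8 partner genes were lower instead of 16. Upper-quartile scaling and the stricter filter each gave 5 higher initiation genes, and without the filter 1 elongation gene was lower. Leaving out each library in turn gave 2 to 4 higher and 19 to 24 lower translation factor genes, 2 to 3 higher and 18 to 21 lower initiation genes, 1 to 3 lower elongation genes, and 10 to 15 lower partner genes. The lowest counts came without hairpin replicate 2 (2 higher), without scramble replicate 2 (19 lower) and without hairpin replicate 3 (10 lower partner genes), and the elongation count was 1 without hairpin replicate 2 or 3 or scramble replicate 2. Less than a full set of libraries also leaves fewer samples in the test; the cause of the other changes was not tested.

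The replicate numbers did not pair the samples: deviations from the group mean correlated by -0.0135, -0.0137 and -0.0031 between libraries of the same number. With the replicate number as a block 22 translation factor genes were lower and 4 higher, with EEF1A1 and EIF2S3 no longer passing, and 2 elongation genes were lower.

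Among the genes named by rule the sign turned for 4. EEF1A1 had a log2 fold change of 0.000572 under total-read scaling. EIF2S3B had 0.13 without hairpin replicate 1 and 0.21 without scramble replicate 1, EIF3CL 0.0013 without scramble replicate 2 and 0.0345 without scramble replicate 3, and EIF5AL1 0.0171 with limma-voom, 0.0222 under total-read scaling, 0.11 without hairpin replicate 3 and 0.08 without scramble replicate 2. Over all single-library omissions the lowest values were -0.31 for EIF2S3B, -0.61 for EIF3CL and -0.13 for EIF5AL1. Of the 28 genes that passed, 12 were lost in at least 1 of 14 alternatives, and 7 of the 29 that did not pass did so in at least 1. With 1 hairpin and technical replicates, an effect of MEF2C and other effects of the hairpin or the culture cannot be told apart.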
